A study of Mus musculus with 48 samples.

Results

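Myelin is the lipid-rich sheath that oligodendrocytes wrap around axons, and 9 genes of that sheath are described here across 2 brain regions and 3 ages of mice. They are Mbp, Mobp, Mal, Cnp, Mag, Mog, Cldn11, Opalin and Ermn, chosen by symbol as genes of the sheath and found by Ensembl gene ID among the 54838 genes of the table; all 9 were matched and all 9 passed the filter on low counts. In rodents the sheath forms mostly after birth: precursor cells become newly formed and then mature oligodendrocytes, which switch on the structural genes together under the transcription factors Sox10 and Myrf. Not every gene of the set belongs to compact myelin in the strict sense. Mbp, the basic protein that zips the cytoplasmic faces of the membrane together, Mobp, a small basic protein beside it, and Mal, a raft proteolipid, do. Cnp, an enzyme of the cytoplasmic channels, and Mag, a sialic acid-binding receptor that faces the axon, lie in non-compacted membrane. Mog is an immunoglobulin-like protein of the outermost surface, Cldn11 a claudin that makes the tight junctions of the sheath, Ermn an actin-binding protein of late oligodendrocytes, and Opalin a sialylated transmembrane protein of oligodendrocytes.

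The study sequenced poly(A) RNA from hippocampus and prefrontal cortex of male mice of 2 genotypes: wild type (WT), and Aag KO (Aag-/-), which lack alkyladenine DNA glycosylase, a DNA repair enzyme encoded by Mpg. The ages were postnatal day 5 (P5), 6 weeks (6W) and an adult group labelled 6M whose animals were 4 to 6 months old per the design text. That gave 12 groups of 4 libraries and 48 libraries in all; the design text gives 4 animals per time point. The strain, the kind of knockout allele and whether both regions came from the same animals are not given in the sources used here. Total counts ran from 21615824 to 47343993 per library, so that 3 counts, the floor used here, correspond to 0.0662 to 0.151 CPM, the level scaled to library size that is used throughout. Mpg was at most 2.53 CPM in any KO library and at least 4.46 CPM in any WT library. Levels below are CPM normalised by trimmed mean of M-values over the 48 libraries. A difference is a log2 fold change from edgeR's quasi-likelihood test with its standard error (SE), and a gene is said to rise, fall or be called only where the Benjamini-Hochberg adjusted p over all genes tested was under 0.05.

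The sequences upstream of 4 of the genes are printed because these are the genes with the largest steps from P5 to 6W in WT hippocampus (Mobp, Mog, Opalin) and with the smallest (Cnp); they do not stand for the other 5. They come from RefSeq on GRCm38.p6, are written 5′ to 3′ on the strand of the gene, and are printed only up to the first base of the gene in either RefSeq or GENCODE M21. Capitals mark the motifs found. SOX factors bind ACAAAG, which reads CTTTGT on the other strand. MYRF binds CTGGCAC and also the variant with the letters CTGGTAC, whose other strand reads GTACCAG.
Mobp, chr9:120149492-120149706 (plus strand): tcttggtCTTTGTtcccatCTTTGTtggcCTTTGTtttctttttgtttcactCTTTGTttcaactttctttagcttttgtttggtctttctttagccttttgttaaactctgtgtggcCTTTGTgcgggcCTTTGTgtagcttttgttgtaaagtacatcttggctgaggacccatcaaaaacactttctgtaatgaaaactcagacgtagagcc
Cnp, chr11:100574689-100574903 (plus strand): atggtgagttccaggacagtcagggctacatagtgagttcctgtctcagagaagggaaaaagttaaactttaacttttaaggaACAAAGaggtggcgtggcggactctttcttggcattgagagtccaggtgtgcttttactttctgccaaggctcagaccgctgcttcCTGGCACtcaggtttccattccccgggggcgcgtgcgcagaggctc
Mog, chr17:37023399-37023648 (minus strand): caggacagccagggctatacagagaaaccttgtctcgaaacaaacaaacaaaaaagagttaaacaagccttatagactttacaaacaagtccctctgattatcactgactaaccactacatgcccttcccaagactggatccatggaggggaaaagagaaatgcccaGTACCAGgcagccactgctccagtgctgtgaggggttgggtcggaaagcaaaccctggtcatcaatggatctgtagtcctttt
Opalin, chr19:41077114-41077363 (minus strand): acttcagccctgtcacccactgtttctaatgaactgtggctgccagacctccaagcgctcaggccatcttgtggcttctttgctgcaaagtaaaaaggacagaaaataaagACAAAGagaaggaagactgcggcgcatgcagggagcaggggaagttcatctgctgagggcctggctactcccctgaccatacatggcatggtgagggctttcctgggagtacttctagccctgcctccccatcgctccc
Of the 9 genes, 8 had an entry, with 10 promoters between them; the one missing was Mbp. Searched on both strands over the 250 bases before each RefSeq start, ACAAAG was found in 4 of the 8 genes (Mobp, Mag, Cnp and Opalin) and in 16.5% of the 32851 promoters of the table. Mobp had 6 matches, all on the opposite strand and between 243 and 115 bases before its start. ACAATG was found in Ermn alone of the 8 (10.7% of all promoters). CTGGCAC was found in Mag and Cnp (4.19%) and CTGGTAC in Mog (1.83%). The E-box CAGCTG (13.0% of all promoters) was found in none of the 8, nor was the TATA box TATAAA (12.4%). None of the motifs was found for Mal or Cldn11. These are matches of letters, and no binding was measured.

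From P5 to 6W all 9 genes rose in each region and each genotype, and no 6W library overlapped any P5 library of its group. In WT hippocampus the steps ran from a log2 fold change of 3.34 (Cnp) to 8.66 (Mobp), with a median of 6.12 against 0.0212 over all genes tested, and 31.4% of all genes were called higher (26.3% without overlap). In KO hippocampus they ran from 3.39 to 8.70 (31.2% of all genes; 27.6% without overlap), in WT prefrontal cortex from 2.31 to 7.57 (30.6%; 28.6%) and in KO prefrontal cortex from 2.21 to 7.81 (30.2%; 25.5%). The largest edgeR adjusted p of the 36 tests was 6.59e-09. In these bulk samples, more cells of a type and more RNA of a gene per cell cannot be told apart, here or in any comparison below. Summed over the 9 genes, their share of all counts went from 0.00868% ± 0.000469 at P5 to 0.370% ± 0.118 at 6W in WT hippocampus, and from 0.00740% ± 0.00206 to 0.141% ± 0.0140 in WT prefrontal cortex (SD, n = 4 each).

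**Figure D1:**
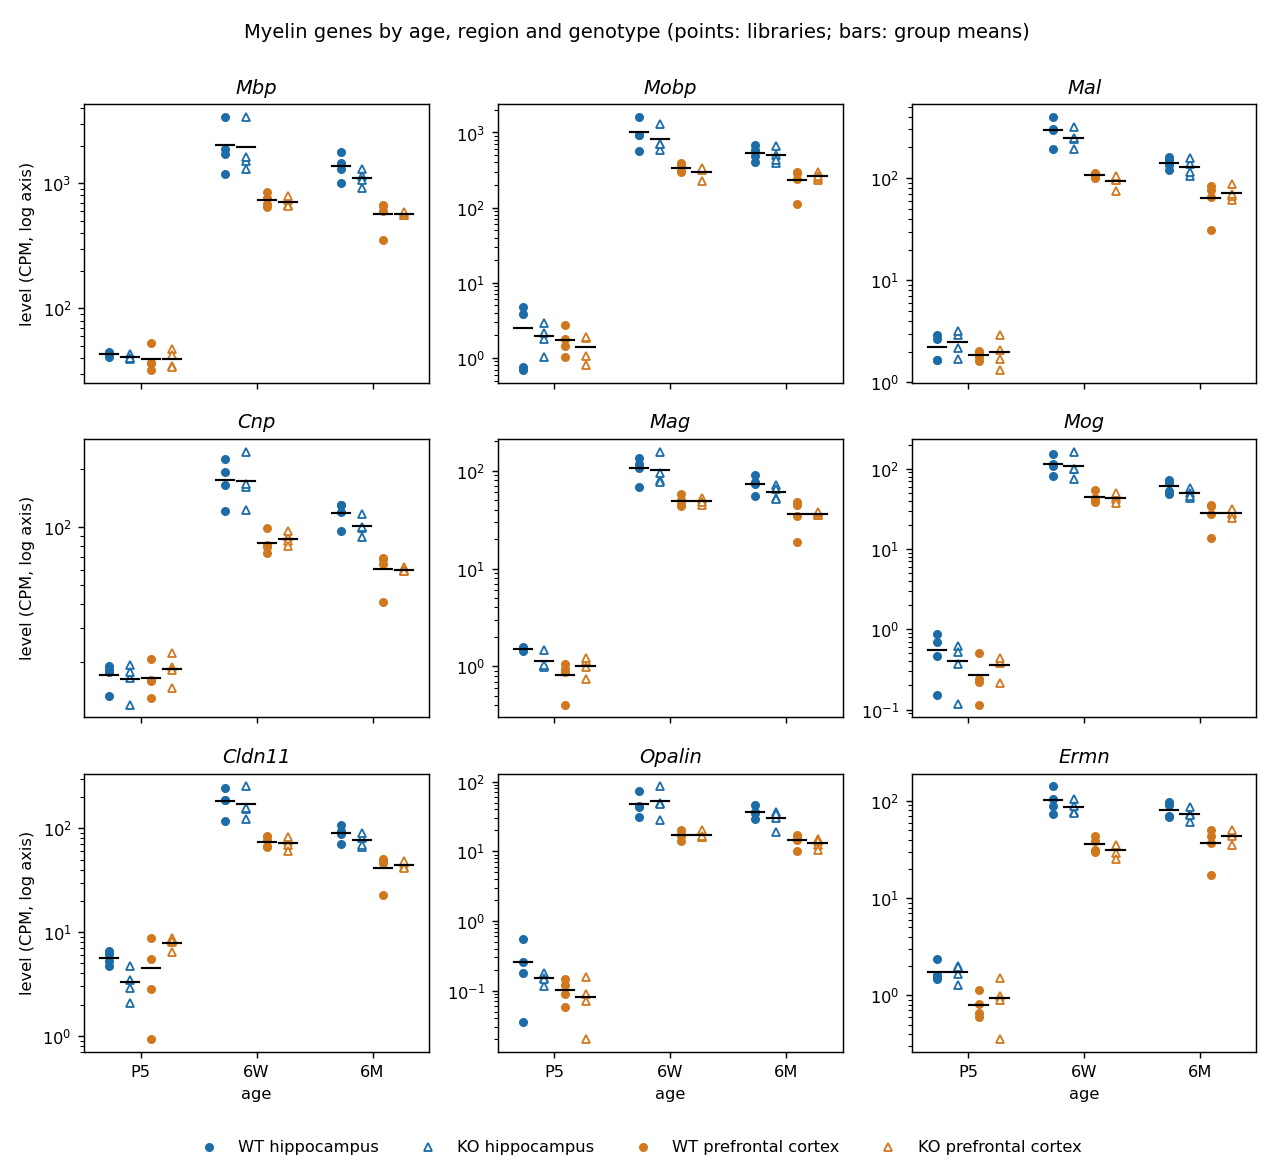
Level of each of the 9 myelin genes in CPM (log axis) at P5, 6W and 6M; each point is a library, black bars are group means of 4 libraries, colour gives the region and shape the genotype, and the single 0 (Opalin, KO prefrontal cortex, P5) is drawn at 0.02. All libraries at 6W and 6M sit above all libraries at P5, and the hippocampal libraries sit above the prefrontal ones at 6W and 6M.

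Mbp had the highest CPM of the 9 genes in all 12 groups, and the highest level per length in all but KO prefrontal cortex at P5, where Cnp led. Its 4 WT hippocampus libraries, in the order of replicates 1 to 4, had 43.3, 44.8, 42.6 and 41.0 CPM at P5 and 3385, 1192, 1868 and 1718 CPM at 6W. The P5 libraries lie within a few CPM of each other, whereas replicate 1 at 6W stands well above the other 3. The step was 5.57 (SE 0.30, adjusted p = 5.07e-15). In WT prefrontal cortex Mbp went from 52.9, 36.7, 36.8 and 32.2 CPM to 759, 851, 682 and 649.7 CPM, a step of 4.20 (SE 0.18, adjusted p = 7.42e-16). P5 values overlapped between the 2 regions and the 6W values did not. The Mbp locus (chromosome 18, 82475146 to 82585637, GRCm38) also holds the longer golli transcripts, which gene-level counts do not separate.

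Mobp had the largest step in both regions of WT. In WT hippocampus its libraries had 3.81, 4.71, 0.752 and 0.693 CPM at P5, with replicates 1 and 2 above 3 and 4, and 1603, 571, 937 and 913 CPM at 6W. The fold change was 8.66 (SE 0.48, adjusted p = 8.64e-15), and in WT prefrontal cortex, where it went from 1.02 to 2.77 to 298 to 393 CPM, it was 7.57 (SE 0.32, adjusted p = 5.43e-16). Mal went from 1.66, 2.94, 2.68 and 1.66 CPM to 397, 194, 305 and 294 CPM in WT hippocampus (7.06, SE 0.25, adjusted p = 1.29e-18). In WT prefrontal cortex it went from 1.63 to 2.04 to 101 to 112 CPM (5.82, SE 0.26). Its 4 prefrontal libraries at 6W were close together, while the hippocampal ones spread over a wider range.

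The genes of non-compacted membrane differed from each other in how high they started. Cnp was already at 18.5, 13.5, 19.2 and 17.8 CPM in WT hippocampus at P5 and reached 223, 121, 164 and 191 CPM at 6W (3.34, SE 0.20, adjusted p = 2.95e-14), the smallest step of the set. In WT prefrontal cortex its step was 2.31 (SE 0.16), from 13.1 to 20.9 to 73.0 to 98.4 CPM. Mag started at 1.45 to 1.57 CPM in WT hippocampus and reached 68.2 to 135 CPM (6.12, SE 0.25, adjusted p = 2.82e-17). Cnp overlaps Dnajc7 on the opposite strand, and the strand setting of the counting is not given in the sources used here. Dnajc7 ran from 119 to 164 CPM at P5 and from 108 to 126 CPM at 6W over all libraries, so reads shared with it, if any, would weigh most on Cnp at P5, where Cnp ran from 12.1 to 22.4 CPM; their part in the Cnp step was not tested. Where another member had an overlapping gene, that gene reached at most 0.786 CPM in any library. Gm22388, opposite Mog, reached 0.773 CPM, above the Mog group means at P5 (0.271 to 0.547 CPM). Galnt5, opposite Ermn, reached 0.54 CPM, against Ermn group means at P5 from 0.802 to 1.76 CPM. The part of shared reads in the Mog and Ermn steps was not tested either.

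Opalin and Mog had the fewest counts at P5, and the lowest library of every other member had 11 or more. Opalin had 1 to 16 counts in the WT hippocampus libraries and 0 to 5 in the KO prefrontal ones at P5. The ratio of its 6W to its P5 level was 188 in WT hippocampus (95% interval 132 to 276) and 218 in KO prefrontal cortex (118 to 454), intervals that cover counting error only. Mog had 5 to 27 counts in WT hippocampus at P5, and its ratio was 208 (163 to 270) there and 164 (118 to 236) in WT prefrontal cortex. The order of Mobp, Mog and Opalin by the size of the step is therefore not resolved, as their 95% intervals in WT hippocampus, 7.68 to 9.64, 7.05 to 8.36 and 6.67 to 8.39 on the log2 scale, overlap.

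Cldn11 and Ermn are the tight junction and the actin-binding member of the set. Cldn11 had 4.69, 6.09, 6.59 and 5.21 CPM in WT hippocampus, but 5.47, 2.82, 0.926 and 8.78 CPM in WT prefrontal cortex, where replicate 3 was low and replicate 4 high. At 6W it had 246, 118, 188 and 187 CPM in WT hippocampus and 77.6, 84.7, 66.0 and 67.4 CPM in WT prefrontal cortex. The steps were 5.03 (SE 0.24) and 4.01 (SE 0.35, adjusted p = 2.61e-10). Ermn had 1.47, 2.39, 1.54 and 1.63 CPM in WT hippocampus and 1.13, 0.663, 0.814 and 0.599 CPM in WT prefrontal cortex at P5. At 6W these were 141, 73.4, 104 and 89.3 CPM and 43.9, 38.5, 30.2 and 31.3 CPM, steps of 5.86 (SE 0.22) and 5.47 (SE 0.33).

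Compared per kilobase of exon, the order of the genes changed between the ages. At P5 in WT hippocampus Mbp (5.07 CPM per kb), Cnp (4.73) and Cldn11 (3.02) led, and Mal had 0.805, while Ermn, Mag, Mobp and Mog lay between 0.321 and 0.483 and Opalin at 0.0875 CPM per kb. At 6W the order was Mbp (241), Mobp (147), Mal (107), Cldn11 (98.7), Mog (66.8), Cnp (48.1), Ermn (28.1), Mag (26.1) and Opalin (16.4 CPM per kb). Cnp thus went from second to sixth. The order of Mag (0.373), Mobp (0.364) and Mog (0.321 CPM per kb) at P5 is not resolved, as the Mobp libraries spread from 0.693 to 4.71 CPM, and in KO hippocampus Mobp (0.287) was above Mag (0.277 CPM per kb).

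All 9 genes were higher in hippocampus at 6W and at 6M, and 1 of the 9 was called at P5. Over the mean of both genotypes at P5, Ermn alone of the 9 was called, higher in hippocampus (1.03, SE 0.24, adjusted p = 0.000617), where 18.3% of all genes were called higher. Opalin (1.16, 95% interval -0.06 to 2.37), Mag (0.50, 0.04 to 0.97) and Cldn11 (-0.48, -0.93 to -0.03) did not pass, and Mbp (0.08, -0.24 to 0.40) and Cnp (-0.06, -0.31 to 0.20) had the narrowest intervals about 0. DESeq2 and the fit with no filter on low counts each called 3 of the 9 at P5. At 6W all 9 were higher in hippocampus, by 1.04 (Cnp) to 1.54 (Opalin) with a median of 1.45, where 20.6% of all genes were called higher. All 8 hippocampal libraries were above all 8 prefrontal ones for all 9 genes, which held for 7.10% of all genes. At 6M all 9 were again higher, by 0.86 (Cnp) to 1.26 (Opalin) with a median of 0.97 (17.3% of all genes called), and again without overlap in 9 of 9 (6.10%). The largest adjusted p was 2.10e-07 at 6W and 1.10e-04 at 6M.

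The difference of the P5 to 6W step between regions was also tested itself. It was positive for all 9 genes, with a median of 1.01 against 0.0267 over all genes, and 4 of the 9 were called where 10.0% of all genes were. These were Cldn11 (1.77, SE 0.29, adjusted p = 6.62e-06), Mbp (1.39, SE 0.22, adjusted p = 4.84e-06), Mal (1.16, SE 0.25, adjusted p = 0.000410) and Cnp (1.09, SE 0.17, adjusted p = 4.01e-06). Each value is the mean of WT and KO. The Cldn11 ratio of 6W to P5 means was 32.7 in hippocampus and 16.4 in prefrontal cortex in WT, but 52.4 and 9.15 in KO. Whether the region difference of Cldn11 differed between genotypes was not tested. Mobp (1.01, SE 0.39) had an adjusted p of 0.0593, which dropped below 0.05 in 7 of the 32 fits that leave out 1 library. These fits were those without WT P5 replicates 1 or 2, WT 6W replicate 2, KO 6W replicate 3 or KO P5 replicate 4 of hippocampus, or KO P5 replicate 1 or WT P5 replicate 4 of prefrontal cortex, with adjusted p from 0.0153 to 0.0465. For Mag (0.58, 95% interval 0.03 to 1.13), Mog (0.76, -0.10 to 1.62), Ermn (0.45, -0.14 to 1.04) and Opalin (0.39, -1.12 to 1.90) the test was not passed.

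**Figure D2:**
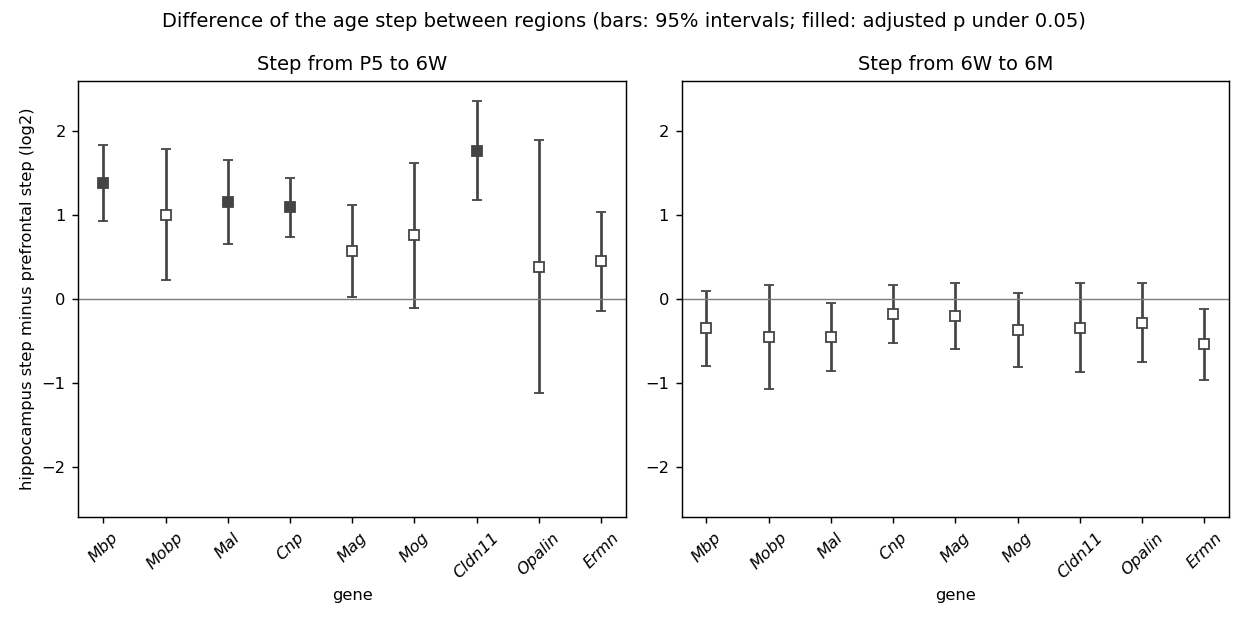
Hippocampus step minus prefrontal step on the log2 scale for the 9 genes, from P5 to 6W and from 6W to 6M, as the mean of WT and KO with 95% intervals; filled points have an adjusted p under 0.05. Cldn11, Mbp, Mal and Cnp are filled in the early step, and no point is filled in the later step although all 9 lie below 0.

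After 6W fewer of the genes passed the test, and the steps were smaller. In hippocampus, with both genotypes averaged, 6 of the 9 fell between 6W and 6M, where 0.877% of all genes were called lower. They were Cldn11 (-1.10, SE 0.14, adjusted p = 2.67e-05), Mog (-1.03, SE 0.15, adjusted p = 0.000129), Mal (-1.01, SE 0.13, adjusted p = 2.44e-05), Mbp (-0.69, SE 0.17, adjusted p = 0.0432), Cnp (-0.67, SE 0.12, adjusted p = 0.00352) and Mag (-0.64, SE 0.13, adjusted p = 0.00808). Mobp (-0.82, 95% interval -1.30 to -0.34, adjusted p = 0.0921), Opalin (-0.61, -0.98 to -0.24, adjusted p = 0.106) and Ermn (-0.28, -0.51 to -0.05, adjusted p = 0.317) did not pass. The call of Mbp ended in 10 of 16 fits that leave out 1 library, and without the 2 hippocampal 6W libraries of replicate 1, which stand apart, Mbp had -0.31 (adjusted p = 0.218) and Mag -0.44 (adjusted p = 0.0501). The median over the 9 was -0.69 and that over all genes 0.0026. The fold change of Mobp was larger in size than those of Mbp, Cnp and Mag, which passed, and so was its SE, 0.23.

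**Figure D3:**
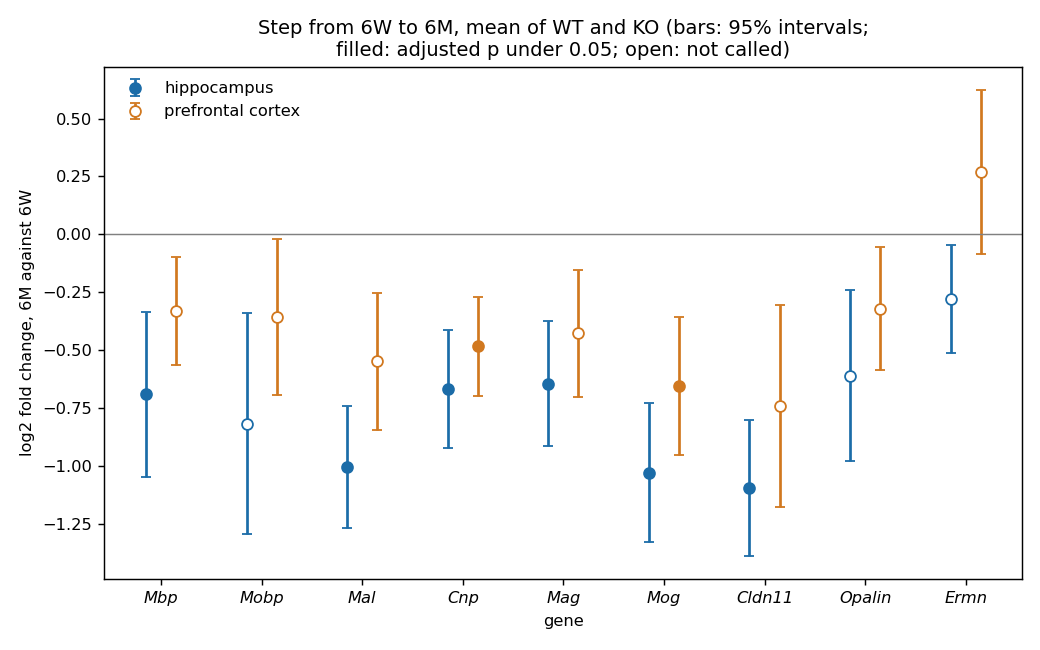
Log2 fold change of 6M against 6W for the 9 genes, as the mean of WT and KO, in hippocampus and prefrontal cortex, with 95% intervals; filled points have an adjusted p under 0.05. In hippocampus 6 points are filled, in prefrontal cortex 2 (Cnp and Mog), and Ermn in prefrontal cortex is the single point above 0.

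Mal, Cldn11 and Mog gave the clearest separation of the ages. Mal in WT hippocampus had 397, 194, 305 and 294 CPM at 6W and 152, 135, 160.4 and 121 CPM at 6M, and in KO hippocampus 318, 239.6, 193 and 245 CPM and 138, 105, 158 and 115 CPM. Every 6W library was above every 6M library in both genotypes. Cldn11 had 246, 118, 188 and 187 CPM and then 94.9, 87.9, 108 and 70.0 CPM in WT, and 253, 153, 124 and 156 CPM and then 81.1, 66.2, 89.9 and 68.9 CPM in KO. Mog had 153, 81.7, 108 and 114 CPM and then 73.4, 53.5, 66.2 and 48.5 CPM in WT, and 163, 98.1, 74.7 and 101 CPM and then 57.7, 43.5, 49.8 and 46.2 CPM in KO. For these 3 genes alone of the 9, all 8 libraries at 6M were below all 8 at 6W, which held for 0.255% of all genes. Group means at 6M were 47.8%, 48.9% and 53.1% of those at 6W for Mal, Cldn11 and Mog in WT hippocampus, and 51.9%, 44.7% and 45.2% in KO.

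Mbp overlapped between the ages. It had 3385, 1192, 1868 and 1718 CPM at 6W and 1768, 1298, 1467 and 999 CPM at 6M in WT hippocampus, and 3389, 1521, 1298 and 1614 CPM and 1305, 926, 1141 and 1063 CPM in KO. Ermn had the smallest fold change, with 141, 73.4, 104 and 89.3 CPM at 6W and 91.1, 69.6, 97.9 and 67.7 CPM at 6M in WT hippocampus, with 6M means at 80.0% (WT) and 84.9% (KO) of 6W.

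Within a single genotype fewer genes passed. In WT hippocampus 2 of the 9 fell (0.129% of all genes): Mal (-1.07, SE 0.18, adjusted p = 0.00559) and Cldn11 (-1.03, SE 0.20, adjusted p = 0.0199). The groups did not overlap for 3 of the 9 (2.64% of all genes). In KO hippocampus 4 fell (0.394% of all genes; 5 without overlap, 2.31%): Cldn11 (-1.16, SE 0.20, adjusted p = 0.00349), Mog (-1.14, SE 0.21, adjusted p = 0.00534), Mal (-0.94, SE 0.18, adjusted p = 0.00919) and Cnp (-0.78, SE 0.18, adjusted p = 0.0391). When replicate numbers entered the KO fit as a block, since same-numbered libraries deviated together in it, 5 were called, Mag being added (-0.74, adjusted p = 0.0190). Single libraries decided several of these calls. Mal in WT had an adjusted p of 0.0561 without WT 6M replicate 4. Cldn11 in WT had 0.125 without WT 6W replicate 1, 0.0796 without WT 6M replicate 2, 0.0579 without WT 6W replicate 3 and 0.141 without WT 6M replicate 4. Mal in KO had 0.0694 without KO 6W replicate 1 and 0.0647 without KO 6M replicate 2. The call of Cnp in KO ended in 6 of 8 such fits, those without KO 6W replicates 1, 2 or 4 or KO 6M replicates 2, 3 or 4, with 0.300 at most. The calls of Cldn11 and Mog in KO held in all 8.

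In prefrontal cortex, with both genotypes averaged, Cnp (-0.48, SE 0.10, adjusted p = 0.0277) and Mog (-0.65, SE 0.14, adjusted p = 0.0326) fell, where 0.419% of all genes were called lower. Within WT and within KO 0 of the 9 were called by edgeR, with an unadjusted p under 0.05 for 7 and 5 of them; 0.0110% and 0.0551% of all genes were called lower. DESeq2 also called 0 in each. In KO alone, 6 of the 9 nevertheless had all 6M libraries below all 6W ones (4.78% of all genes), and 5 of the 9 did in WT (2.01%). Cnp had 73.0, 98.4, 79.2 and 80.5 CPM at 6W and 40.8, 68.8, 68.0 and 64.3 CPM at 6M in WT, and 88.8, 84.2, 95.8 and 79.8 CPM and 62.4, 59.2, 59.7 and 59.0 CPM in KO. Mog had 41.2, 54.6, 38.2 and 43.9 CPM and then 13.6, 35.8, 27.2 and 34.4 CPM in WT, and 45.1, 41.8, 50.5 and 37.9 CPM and then 27.6, 28.0, 24.5 and 31.6 CPM in KO. For Cnp, Mog and Cldn11 all 8 libraries at 6M were below all 8 at 6W (0.233% of all genes).

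Neither prefrontal call held in all 16 fits that leave out 1 library. That of Cnp ended without KO 6W replicates 1 or 3, KO 6M replicates 2 or 4, or WT 6W replicate 2 (adjusted p up to 0.0696). That of Mog ended in 9 fits, without KO 6W replicates 1 or 3, any KO 6M replicate, WT 6W replicates 2 or 4, or WT 6M replicate 3 (up to 0.0799). Over all 16 the log2 fold change stayed between -0.52 and -0.41 for Cnp and between -0.73 and -0.54 for Mog.

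Ermn was the only member above 0 in the prefrontal later step, at 0.27 (95% interval -0.08 to 0.62, adjusted p = 0.532). It had 43.9, 38.5, 30.2 and 31.3 CPM at 6W and 17.1, 44.0, 36.6 and 50.1 CPM at 6M in WT, and 34.7, 29.3, 35.6 and 25.2 CPM and 34.9, 45.4, 44.1 and 49.7 CPM in KO. The groups overlapped in both genotypes. The 6M means were 103% and 139% (139.5) of the 6W means, while those of the other 8 genes were between 56.5% and 86.6%.

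Whether hippocampus fell further than prefrontal cortex was tested as a difference of the later steps. It was below 0 for all 9 genes, from -0.54 (Ermn) to -0.17 (Cnp) with a median of -0.35, but none was called, where 0.0106% of all genes were. The 2 genes with an unadjusted p under 0.05 were Ermn (0.0147, adjusted 0.473) and Mal (0.0318, adjusted 0.497), and DESeq2 called 0. For Cnp the 95% interval was -0.52 to 0.17 and for Mobp -1.07 to 0.17. A larger fall in hippocampus was therefore not resolved for any of the 9, and the intervals allow one of up to 1.07 log2 units.

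Ranked by group mean, hippocampus 6W came first, hippocampus 6M next, then prefrontal cortex 6W and 6M, and the 4 P5 groups last, for Mbp. Its neighbours in that order were separated, with no overlap, between KO hippocampus 6M (1109 ± 158 CPM) and WT prefrontal cortex 6W (735 ± 89.9), between KO prefrontal cortex 6W (712 ± 62.2) and KO prefrontal cortex 6M (573 ± 18.7), and between the later ages and P5 (SD, n = 4 each). All other neighbours overlapped. For Ermn the prefrontal 6M groups ranked above the prefrontal 6W groups (43.5 ± 6.24 and 37.0 ± 14.3 CPM against 36.0 ± 6.45 and 31.2 ± 4.88 CPM), with overlap.

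Some libraries stood apart for the whole set. In hippocampus at 6W, replicate 1 was the highest of its group for 9 of 9 genes in WT and also in KO, with summed levels of 6357 and 6007 CPM against 2450 to 3824 CPM in the other 6. In the same libraries 8 astrocyte markers summed to 8709 and 7749 CPM against 5805 to 6731 CPM, 8 microglial markers to 575 and 489 CPM against 328 to 391 CPM, and 8 neuronal markers to 4730 and 5139 CPM against 5759 to 6253 CPM. The astrocyte sums rest largely on Slc1a2, whose hippocampal group means at 6W were 5547 CPM in WT and 5026 CPM in KO. Without both libraries, 4 of the 9 genes were called in the averaged hippocampal later step (Cldn11, Mog, Mal and Cnp). The fits that ended the call of Mbp, with an adjusted p up to 0.131, were those without WT 6W replicates 1 or 3, WT 6M replicates 2, 3 or 4, KO 6W replicate 1, or any KO 6M replicate. The calls of the other 5 genes held in all 16. WT 6W replicate 2 and KO 6W replicate 3 were the lowest for 9 of 9. At 6M, WT replicate 4 of hippocampus was also the lowest of its group for 9 of 9, at a summed 1894 CPM against 2358 to 3101 CPM. Leaving it out ended the calls of Mal and Cldn11 in WT hippocampus, as given above.

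In prefrontal cortex, WT 6M replicate 1 was the lowest of its group for 9 of 9 genes, at a summed 621 CPM against 1137 to 1296 CPM. Its sum over 28 other genes of mature oligodendrocytes was 1014 CPM against 1842 to 2118 CPM, its sum over 8 striatal markers 133 CPM against 172 to 608 CPM, and its neuronal sum 8569 CPM against 6975 to 7864 CPM. KO 6W replicate 3 was the highest for 9 of 9, and its striatal sum, 1035 CPM, was also the highest of its group (195 to 522 CPM in the others). The striatum lies next to the frontal cortex, and the part of these markers, or of the other cell types, in the levels was not tested. Without WT 6M replicate 1, Cnp was at -0.41 and Mog at -0.54 in the averaged prefrontal step, both still called, and Mal joined them (-0.43, adjusted p = 0.0461). Without WT 6M replicate 1 of prefrontal cortex and replicate 1 of both hippocampal 6W groups, 9 of 9 genes were called between regions at 6W and at 6M, and the region difference was called for Cldn11, Mbp, Mal and Cnp in the early step and for 0 of 9 in the later one.

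**Figure D4:**
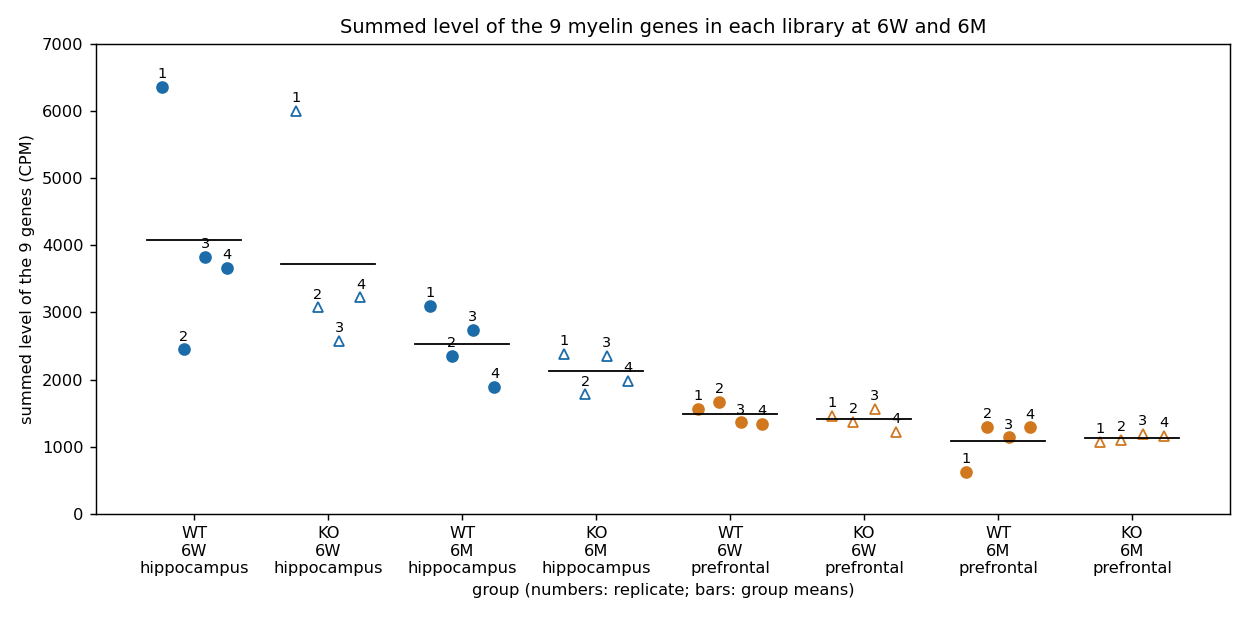
Summed level of the 9 genes in CPM in each library at 6W and 6M, by region and genotype; numbers are replicates and bars are means of 4 libraries. Replicate 1 of both hippocampal 6W groups lies at 6357 and 6007 CPM, above all others, and replicate 1 of WT prefrontal 6M at 621 CPM lies below all others.

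Loss of Aag was not followed by a called change of any of the 9 genes. Over the 6 comparisons of KO with WT, 0 of 54 tests were called by edgeR and 2 had an unadjusted p under 0.05, and DESeq2 also called none, while the fit with no filter on low counts called 1, Cldn11 at P5 in hippocampus (-0.79, adjusted p = 8.10e-07); of all genes in hippocampus 0.118% were called at P5, 0.0394% at 6W and 0.0450% at 6M, and of those in prefrontal cortex 0.0496%, 0.0331% and 0.0331%. At 6W and 6M the 95% intervals over the 9 genes ran from -0.97 to 0.64 in hippocampus and from -0.71 to 0.74 in prefrontal cortex, so they do not include changes beyond these sizes. At P5 they were wider, -2.64 to 1.14 and -1.74 to 1.47. Cldn11 at P5 was the gene without overlap (4.46% of all genes in hippocampus): 4.69, 6.09, 6.59 and 5.21 CPM in WT and 3.47, 4.68, 2.86 and 2.06 CPM in KO hippocampus, with 4.69 the lowest WT and 4.68 the highest KO value (-0.80, adjusted p = 0.359). In prefrontal cortex at P5 the 4 KO libraries had 8.68, 8.10, 8.16 and 6.37 CPM, in the range of the higher WT libraries (0.78, adjusted p = 0.592). The P5 to 6W step and the 6W to 6M step differed between genotypes for 0 of the 9 genes in either region, by edgeR and by DESeq2, whereas with no filter on low counts Cldn11 was called in the early step of hippocampus (0.68, adjusted p = 0.0120). By edgeR, the unadjusted p was under 0.05 for 1 of these 36 tests; 0.00562% and 0.0110% of all genes were called in the early step of hippocampus and prefrontal cortex, and 0.00% in the later step of each.

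With each group's mean taken out, the correlation of log2 CPM between pairs of members over the 48 libraries ran from 0.094 to 0.785, with a median of 0.445 over 36 pairs; the libraries share their normalisation and any difference in tissue taken. Among the genes whose levels were most like the members' mean over all 48 libraries were Tmem88b (r = 0.995), Fa2h (0.994), Gjc3 (0.991), Ugt8a (0.988), Ddn (0.987), Myrf (0.986) and Pllp (0.985), of 9724 genes ranked. These correlations include the age steps that all of these genes share. With group means out they included Ugt8a (0.783), Tmem88b (0.764), Fa2h (0.745), Prr18 (0.733), Tmem98 (0.732), Tspan2 (0.729) and Creb5 (0.718). Ugt8a and Fa2h make the galactolipids of the sheath, Tspan2 is a tetraspan membrane protein of oligodendrocytes, and Gjc3 is a glial connexin.

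Other genes of the oligodendrocyte lineage were counted by stage, with no test between the lists. From 6W to 6M, as the mean of WT and KO, 0.877% of all genes were called lower in hippocampus and 0.419% in prefrontal cortex, the shares against which the later counts of the lists below stand. Of 28 other genes of mature oligodendrocytes and myelin, 28 rose from P5 to 6W in WT hippocampus (median 3.72) and 27 in WT prefrontal cortex (3.07), among them Nkx6-2 (7.65, SE 0.60) in hippocampus and Klk6, a protease (7.19, SE 0.70), and Tmem125 (6.92, SE 0.45) in prefrontal cortex. From 6W to 6M, 5 of the 28 fell in hippocampus (median -0.29), with Ugt8a (-0.96, SE 0.12) and Tspan2 (-0.93, SE 0.10) first, and 0 in prefrontal cortex (median -0.04). The median over all genes was between 0.0022 and 0.0212 in these steps. Without WT 6M replicate 1 the prefrontal count was 2, and without KO 6W replicate 4 it was 1.

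For the lists here, 31.4% of all genes were called higher and 30.6% lower in the early step of WT hippocampus, and 30.6% and 30.3% in that of WT prefrontal cortex. Of 8 genes of newly formed oligodendrocytes, 3 rose and 3 fell from P5 to 6W in each region, near those shares; Bcas1 (3.33, SE 0.27, in hippocampus) and Enpp6 (2.18, SE 0.21) rose and Rras2 (-1.16, SE 0.12) and Cemip2 (-0.85, SE 0.12) fell. From 6W to 6M, 3 of the 8 fell in hippocampus, with Enpp6 (-1.12, SE 0.15, adjusted p = 2.67e-05) and Gpr17 (-0.92, SE 0.10, adjusted p = 1.61e-06) first, and Gpr17 fell in prefrontal cortex (-0.84, SE 0.13, adjusted p = 0.00139). Gpr17 is a receptor of cells on the way from precursor to myelinating oligodendrocyte, and Enpp6 a choline phosphodiesterase of newly formed ones. Of 7 precursor genes, 5 fell and 1 rose from P5 to 6W in WT hippocampus and 3 fell and 1 rose in WT prefrontal cortex. Vcan, a proteoglycan (-2.18, SE 0.11, and -3.03, SE 0.15), and Pdgfra, the receptor that keeps precursors dividing (-0.82, SE 0.10, and -0.72, SE 0.08), fell in both, and Neu4, a sialidase, rose (2.80, SE 0.24, and 2.42, SE 0.24). None of the 7 was called from 6W to 6M, and 1 was in hippocampus without WT 6W replicate 2.

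Among 10 transcription factors of the lineage, 5 rose in WT hippocampus, and 3 rose and 2 fell in WT prefrontal cortex from P5 to 6W. Sox10, Myrf and Nkx6-2 are counted both here and among the other genes of mature oligodendrocytes. Nkx6-2 (7.65, SE 0.60, and 4.90, SE 0.49) and Myrf, which drives the myelin genes (4.12, SE 0.23, and 3.41, SE 0.22), rose most, and Olig2 (-0.47, SE 0.12) and Olig1 (-0.43, SE 0.13) fell in prefrontal cortex. Zfp488, a zinc finger factor of the lineage, fell from 6W to 6M in hippocampus (-0.69, SE 0.10, adjusted p = 0.00019) and in prefrontal cortex (-0.67, SE 0.15, adjusted p = 0.0404), where the count of called factors was 0 in 14 of 16 fits that leave out 1 library, all but those without KO 6M replicate 3 or WT 6W replicate 1. Genes of cholesterol synthesis, whose product is a main lipid of the sheath and which all cells use, went the other way from the members: 15 of 18 fell in WT hippocampus from P5 to 6W (median -1.08) and 17 of 18 in WT prefrontal cortex (median -1.44). Fdps, which makes farnesyl diphosphate, fell in hippocampus (-1.94, SE 0.16) and in prefrontal cortex (-2.42, SE 0.17), and Mvd, an enzyme of the mevalonate pathway, fell in prefrontal cortex (-2.17, SE 0.16). None of the 18 was called from 6W to 6M, though 3 were in hippocampus without WT 6M replicate 1, and 1 was in prefrontal cortex without WT 6M replicate 1 or without KO 6M replicate 3.

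**Figure D5:**
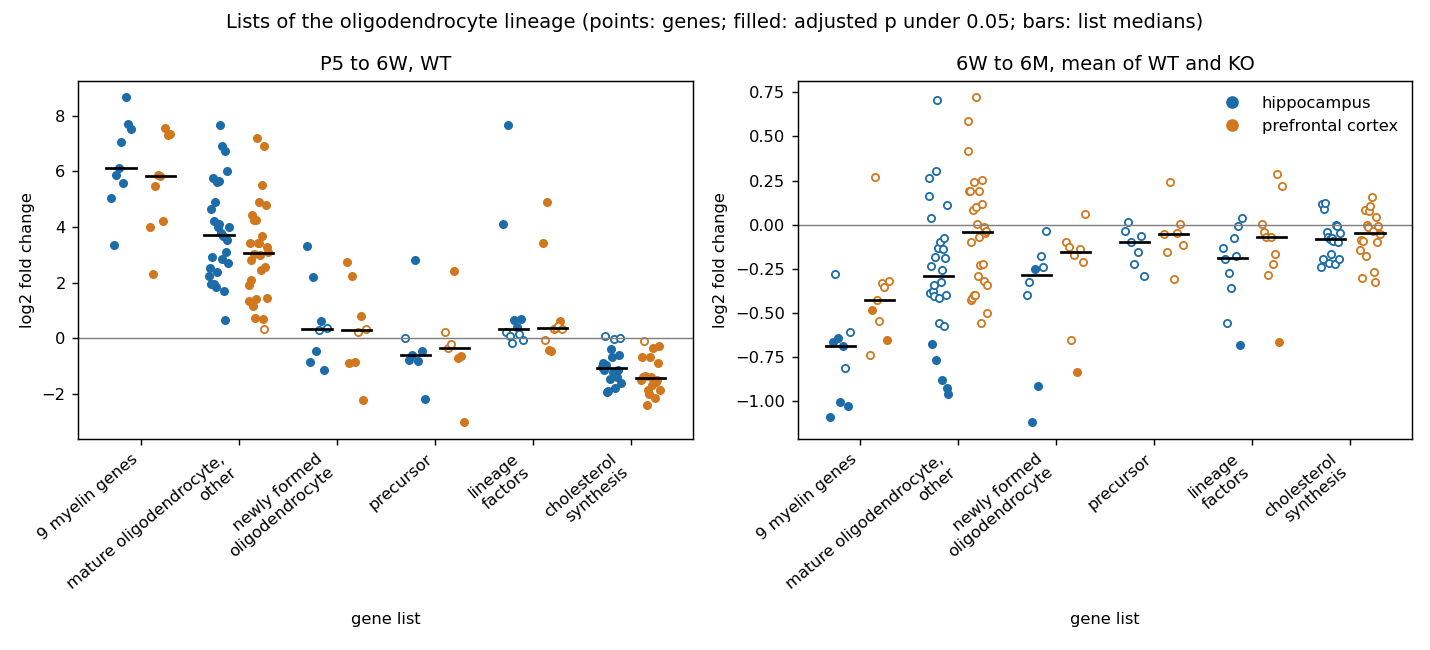
Log2 fold changes of the 9 myelin genes and of 5 lists of related genes, from P5 to 6W in WT (left) and from 6W to 6M as the mean of WT and KO (right), by region; each point is a gene, filled where its adjusted p was under 0.05, and bars are list medians. In the early step all points of the 9 genes and of the other mature genes lie above 0 and the medians of the cholesterol list below 0, and in the later step the filled points, all below 0, belong to 4 of the 6 sets plotted. Sox10, Myrf and Nkx6-2 are plotted both among the other mature genes and among the lineage factors.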

How the data were processed

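Poly(A) RNA of 48 samples was sequenced as 75 bp single reads from a stranded kit, per the labels' protocols. The authors deposited whole-number counts per Ensembl gene, not normalised. The submitters' processing notes name bcl2fastq 2.20.0.422, STAR 2.4.0, HTSeq and the build GRCm38; their roles, the gene annotation and the strand setting are not given in the sources used here. Of 54838 gene IDs, 54723 were matched to a symbol.

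Groups were taken from the labels. Genes passing filterByExpr (17786 in hippocampus, 18144 in prefrontal cortex, 18849 over both) were fitted with edgeR 4.0.16 in R 4.3.3 (TMM scaling, quasi-likelihood test, Benjamini-Hochberg adjustment over all genes tested, threshold 0.05). Each region was fitted with its 24 libraries in 6 groups, and comparisons between regions with all 48 libraries in 12 groups. The SE is the log2 fold change divided by the root of the F statistic. Alternatives were other size factors, no filter, DESeq2 1.42.0, a replicate block, only the groups compared, leaving out each library, and, chosen after seeing the data, leaving out the libraries that stand apart. The fits were tested on simulated data. Libraries of a group differed by more than sampling noise in all 72 pairs.

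Replicate numbers are shared across groups in the labels. Same-numbered libraries deviated together, with every correlation over 0.1, in the KO hippocampus step from 6W to 6M (0.287 to 0.42) and in KO against WT at 6W in hippocampus (0.129 to 0.654), and not elsewhere. The members and the 13 other gene lists were chosen with earlier results of these data known. Genes named from a list are up to 2 called ones with the largest fold change in each direction, and, for likeness, the 8 with the highest correlation to the members' mean log2 CPM (prior count 1, mean of at least 3). Of the genes these rules name, 2 are not reported here. Motif matches and counting intervals are descriptions; intervals cover counting error only.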

Additional observations from a re-analysis of the deposited data

Results flagged for a closer look

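Within groups of 4, a library lay far from the other 3 by Dixon's criterion in 6 of the 108 sets of a gene and a group, where about 5.4 (1 in 20) are flagged by chance. In WT prefrontal cortex at 6M, replicate 1 was low for Cldn11 (22.6 CPM, others 46.4 to 50.2 CPM) and for Cnp (40.8 CPM, others 64.3 to 68.8 CPM). In KO hippocampus at P5, Mag was high in replicate 3 (1.48 CPM, others 0.983 to 1.03 CPM). In KO hippocampus at 6W, Mbp was high in replicate 1 (3389 CPM, others 1298 to 1614 CPM). In KO prefrontal cortex at 6W, Mobp was low in replicate 4 (226 CPM, others 318 to 333 CPM) and Opalin was high in replicate 3 (20.6 CPM, others 16.1 to 16.7 CPM).

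The step from P5 to 6W differed between hippocampus and prefrontal cortex, by the edgeR test of the difference itself, for Cldn11 (1.77), Mbp (1.39), Mal (1.16) and Cnp (1.09 on the log2 scale), each larger in hippocampus. These values are means of WT and KO.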

How the results depend on the processing

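No fold change of a member reversed, and of 73 called results of the members 65 were called under every alternative; the rise from P5 to 6W (9 of 9) and the regional differences at 6W and 6M (9 of 9) kept their counts throughout, and other size factors changed no count of members. The later step depended on the settings. Its 2 calls in WT hippocampus became 8 with no filter on low counts, 0 with only the groups compared and 0 to 3 when 1 library was left out. Its 4 calls in KO hippocampus became 8 with no filter, 3 with only the groups compared or without the 2 outlying libraries, and 2 to 6 when 1 library was left out. The 6 averaged calls in hippocampus became 9 with no filter, 5 with DESeq2, 4 without the 2 outlying libraries and 5 to 8 when 1 library was left out. In prefrontal cortex the 0 calls in WT became 1 with no filter, the 0 in KO became 4 with only the groups compared, and the 2 averaged calls became 5, 4 and 3 with no filter, only the groups compared and DESeq2, and 0 to 3 when 1 library was left out. With no filter, KO against WT at P5 in hippocampus had 1 call, and the genotype difference of the early step there had 1, both Cldn11 (-0.79 and 0.68). The 1 regional call at P5 became 3 with no filter, 3 with DESeq2, 2 with only the groups compared, and 1 to 2 when 1 library was left out. The 4 regional differences of the early step became 5 with no filter and 4 to 5 when 1 library was left out. Shares of all genes called are printed here for the main fits only, so these shifts cannot be read as particular to the members. The cause of these shifts was not tested.

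When replicate numbers entered as a block, the calls in KO hippocampus went from 4 to 5, those in WT hippocampus from 2 to 3 (Mog added) and the averaged ones from 6 to 7 (Opalin added), and the other counts of members did not change. Depth limits Opalin and Mog at P5, with 0 to 27 counts a library.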

Other observations

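Of 9 genes of the nodes and paranodes, where axon and sheath meet, 7 rose from P5 to 6W in WT hippocampus (median 1.59). In WT prefrontal cortex 7 rose (median 1.68) and 1 fell. Which cells made these RNAs was not measured. Cntnap1, the paranodal Caspr, had 4.15 (SE 0.12) and 4.47 (SE 0.19), and the potassium channel genes Kcnab2 (2.88, SE 0.13, hippocampus) and Kcna1 (3.04, SE 0.15, prefrontal cortex) came next, while Cntn1, the partner of Caspr, fell in prefrontal cortex (-0.32, SE 0.10). From 6W to 6M, Nfasc alone of the 9 was called, lower in hippocampus (-0.33, SE 0.08, adjusted p = 0.0404), and the count was 0 in 12 of 16 fits that leave out 1 library.

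In the early step 31.4% of all genes were called higher and 30.6% lower in WT hippocampus, and 30.6% and 30.3% in WT prefrontal cortex, and several of the counts for markers of other cells lie near these shares. All 8 microglial genes rose in both regions, led by Tmem119 (2.81, SE 0.18, in hippocampus). Of 8 astrocyte genes 4 rose in hippocampus, and 6 rose and 1 fell in prefrontal cortex. Of 8 neuronal genes 6 rose and 2 fell in each, with Snap25 (2.21, SE 0.11) highest and Tubb3 (-2.78, SE 0.13) lowest in hippocampus. Of 6 endothelial genes 1 rose and 3 fell in each. Of the 6 Schwann cell genes, which mark peripheral myelin, 4 were tested; Pmp22 rose (0.55, SE 0.13, in hippocampus) and Prx fell (-1.86, SE 0.53). Of 10 choroid plexus genes 1 rose and 5 fell in hippocampus, and of 8 tested in prefrontal cortex 2 rose and 2 fell. Of 8 striatal genes 2 rose and 2 fell in hippocampus and 4 rose in prefrontal cortex. From 6W to 6M, 1 gene of these 7 lists was called, Kdr in hippocampus (-0.31, SE 0.08, adjusted p = 0.0425), a call lost without the 2 hippocampal 6W libraries that stand apart.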
